A study of Mus musculus with 8 samples.

Results

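The genes of the axonemal dynein motors were followed in testes of Iqch mutant mice, with the factors that assemble these motors and the complexes that dock and regulate them. Protein-coding genes were taken by symbol: the numbered Dnah, Dnai, Dnal, Dnaaf, Odad and Drc genes and Dnali1. The annotation holds 41 such genes, of which 40 were among the 17127 genes with values, and all 40 passed the minimum level for testing. The remaining gene, Dnaaf6, was not analysed here. By role they were 9 outer-arm genes, 4 docking complex genes, 14 inner-arm genes, 10 assembly factor genes and 3 genes of the nexin-dynein regulatory complex (N-DRC). Transcripts of whole adult testis were sequenced in 4 wild-type mice (WT) and in 3 mice labelled Iqch-/-, called mutants 1, 2 and 4, with 1 library per mouse at 4 months of age. The mutants carried small CRISPR/Cas9 deletions in exon 19 of Iqch, a gene for a calmodulin-binding protein of the testis, made in zygotes of a C57BL/6 and CBA hybrid background, and homozygous males were infertile. Lines with different deletions were made. The study shows the RNA-seq coverage of Iqch for its mu7 line, and the labels name no line for a library.

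Axonemal dyneins are the motors that bend cilia and the sperm tail. Each arm holds heavy chains with the motor domain, intermediate chains that hold the arm together, and light chains. Outer arms are attached to the doublet microtubules by the docking complex and set beat frequency, inner arms set the shape of the bend, and the N-DRC links neighbouring doublets. The arms are built in the cytoplasm by assembly factors (DNAAF proteins) before they enter the tail. In the testis these genes are transcribed mainly in late spermatocytes and spermatids, and the sperm tail and airway cilia use different outer-arm heavy chains.

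Iqch itself was measured at 207.8 ± 11.3 CPM (reads of a gene per 1000000 reads of its library; SD, n = 4) in WT and at 67.26 ± 2.252 CPM (n = 3) in mutants, and all mutant libraries lay below all WT libraries. Libraries held 32064384 to 37551057 reads on the genes of the table, if the smallest step of the values is taken as 1 read. Fold changes are log2 differences of mutant minus WT on the log2(CPM + 0.1) scale, each with its standard error (SE), and genes were called by limma at a false discovery rate (FDR) under 0.01 over all 17126 genes tested. At this threshold 50.4% of all genes were called, 14.2% as lower and 36.3% as higher in mutants, and the median fold change of all genes was 0.12. With median-of-ratios size factors that median was -0.013 and 52.1% of genes were called, 25.1% as lower and 27.0% as higher. The scaling therefore moves every gene by about the same amount, and a call that differs under the second scaling is given beside the gene or as a count for its group.

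Of the 40 genes, 19 were called lower and 3 higher in mutant testes (Dnah5, Dnah9 and Drc3), against 14.2% and 36.3% of all genes, and 18 were not called. Their summed level lay between 6771 and 7140 CPM in the 4 WT libraries and between 5442 and 5689 CPM in the 3 mutant libraries. Much of this drop was that of Dnah8 alone, from 1663 to 876.6 CPM on average. The share called in either direction, 55.0%, was close to the 50.4% of all genes, and it was the direction of the calls that differed from the background. The median fold change of the 40 genes was -0.18, which is 0.299 below the median of all genes. With size factors 28 were called lower and 1 higher (Dnah9), against 25.1% and 27.0% of all genes, with a median of -0.31. Mutant and WT libraries did not overlap for 22 genes that were lower and 4 that were higher, against 19.5% and 42.8% of all genes. In whole testis, fewer cells of a type and less RNA per cell cannot be told apart.

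**Figure D1:**
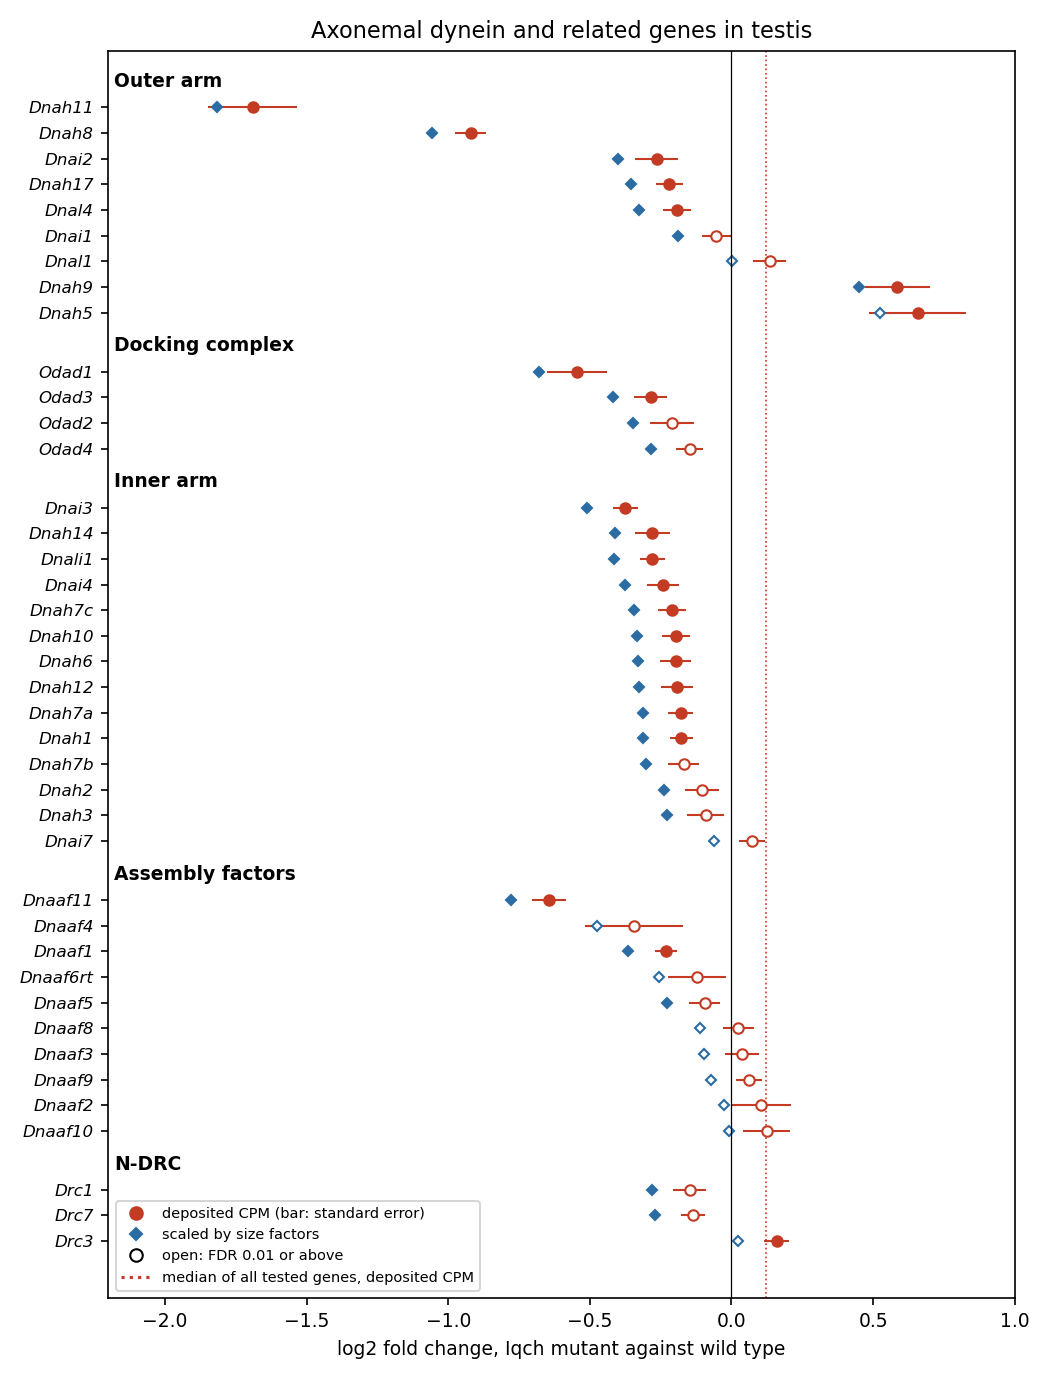
Log2 fold change of mutant against WT for the 40 genes, by role. Circles with SE bars are from the deposited CPM and diamonds from values scaled by size factors, and filled symbols are called at an FDR under 0.01. Most genes lie left of 0, Dnah11 lies lowest at -1.69, and Dnah9 and Dnah5 lie to the right at 0.58 and 0.66.

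The outer-arm genes held both the largest falls and the largest rises. Of 9 genes 5 fell (Dnah11, Dnah8, Dnai2, Dnah17 and Dnal4) and 2 rose (Dnah5 and Dnah9), against 14.2% and 36.3% of all genes. Dnai1 and Dnal1 were not called. With size factors 6 fell and 1 rose, against 25.1% and 27.0% of all genes. Dnah8 and Dnah17 encode the outer-arm heavy chains of the sperm tail. Dnah5, Dnah9 and Dnah11 encode those of airway and other motile cilia. In both genotypes the sperm-tail genes were the more abundant by far.

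Dnah8 (chromosome 17, 93 exons) was measured at 1563, 1545, 1781 and 1762 CPM in WT 1 to 4 and at 849.5, 872.9 and 907.4 CPM in mutants 1, 2 and 4. All mutant values lay below all WT values, and the WT level was 1.89 times the mutant level. The fold change was -0.92 (SE 0.054, limma FDR 2.95e-08), and it stayed between -0.96 and -0.89 whichever single library was omitted. Dnah17 (chromosome 11, 81 exons), its partner in the sperm tail, was measured at 565.5, 590.5, 586.5 and 649.2 CPM in WT and at 512.3, 495.5 and 531.9 CPM in mutants. It fell as well, without overlap, but by much less (-0.22, SE 0.048, limma FDR 0.00164). The ratio of Dnah8 to Dnah17 within a library does not depend on scaling. It was 2.76, 2.62, 3.04 and 2.71 in WT libraries and 1.66, 1.76 and 1.71 in mutant libraries, 2.78 ± 0.18 (n = 4) against 1.71 ± 0.0518 (n = 3). This ratio was chosen after its values were seen and was given no test.

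**Figure D2:**
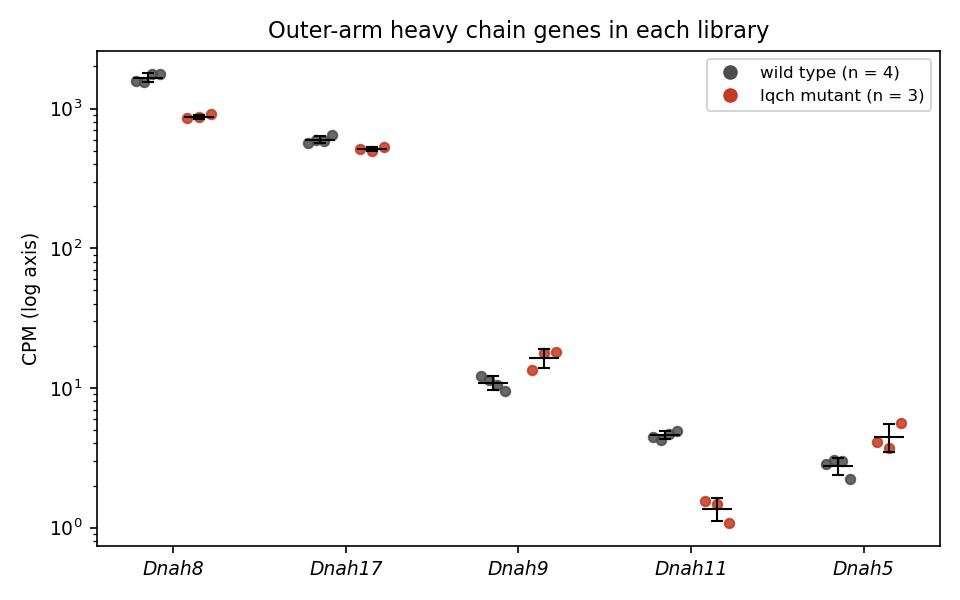
CPM (log axis) of the outer-arm heavy chain genes in each library, with WT in grey (n = 4) and mutants in red (n = 3). Black bars show the mean and SD. Dnah8 fell from about 1663 to 876.6 CPM and Dnah11 from 4.58 to 1.36 CPM, whereas the mutant libraries of Dnah9 and Dnah5 lie above the WT libraries.

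Per kb of annotated exon, Dnah8 was the most abundant of the 15 heavy chain genes in WT at 61.4 ± 4.65 CPM per kb, followed by Dnah17 at 37.3 ± 2.24 and Dnah2 at 17.8 ± 1.41 CPM per kb. The WT ranges of these first 2 did not overlap each other or the next. In mutants Dnah8 stood at 32.4 ± 1.07 and Dnah17 at 32.0 ± 1.14 CPM per kb, which differ by less than their SD. This near tie depends on the length used: per kb of the canonical transcript, which is 16.7 kb for Dnah8 against 27.1 kb of merged exons, the mutant levels were 52.5 and 37.7 CPM per kb. Dnah8 made up 28.2% ± 0.991 of heavy-chain CPM per kb in WT and 19.1% ± 0.0529 in mutants. Dnah17 made up 17.1% ± 0.614 in WT and 18.9% ± 0.569 in mutants, although its own level per kb was lower in mutants.

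**Figure D3:**
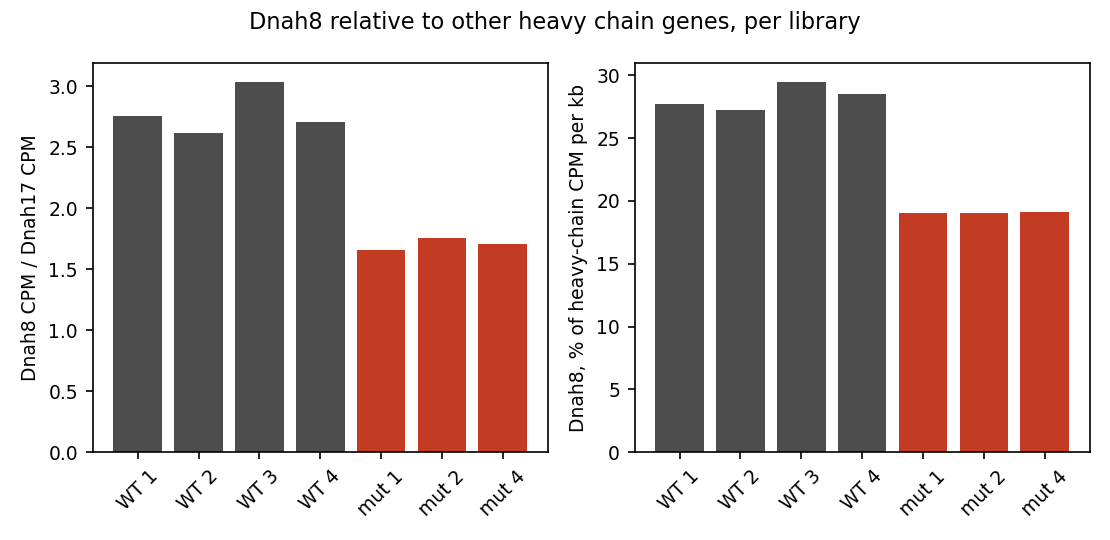
Dnah8 relative to other heavy chain genes in each library (WT grey, mutants red), as the ratio of Dnah8 to Dnah17 CPM on the left and as the percentage of all heavy-chain CPM per kb of merged exons on the right. The 3 mutant libraries lie at 1.66 to 1.76 and at 19.0% to 19.1%, below all WT libraries.

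Dnah11 (chromosome 12, 82 exons) was scarce in WT testis and scarcer in mutants. Its values were 4.458, 4.253, 4.687 and 4.927 CPM in WT, or 146 to 185 reads, and 1.551, 1.466 and 1.075 CPM in mutants, or 35 to 54 reads. The genotypes did not overlap, and the fold change was the lowest of the 40 genes (-1.69, SE 0.157, limma FDR 1.32e-06). All mutant values lay under the minimum of 2.2 CPM, so Dnah11 entered the test through its WT values alone. Its separation and FDR are therefore not independent of the filter. Exons of Cdca7l on the opposite strand cover 4.44% of its exon bases. Cdca7l was called higher in mutants (0.48, SE 0.129, limma FDR 0.00554), but not with size factors (limma FDR 0.0334). The part of Cdca7l in the value of Dnah11 was not tested.

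Dnah9 (chromosome 11, 69 exons) went the other way, with 12.21, 11.39, 10.44 and 9.454 CPM in WT and 13.53, 17.75 and 17.97 CPM in mutants. The mutant values were all higher (0.58, SE 0.115, limma FDR 0.000723), mutant 1 lay closest to the WT range, and the call held with size factors. Dnah5 (chromosome 15, 79 exons) was the least abundant heavy chain gene in WT, at 2.872, 3.029, 3.013 and 2.21 CPM, against 4.108, 3.711 and 5.621 CPM in mutants. Its libraries did not overlap either, but the call (0.66, SE 0.17, limma FDR 0.00467) was lost with size factors (FDR 0.0156) and without WT 4 or mutant 4. Dnah5 and Dnah11 exchanged places at the foot of the order, from 0.178 and 0.317 CPM per kb in WT to 0.287 and 0.0943 CPM per kb in mutants. Together the 3 cilia-type genes were 0.479% ± 0.0483 of heavy-chain CPM per kb in WT and 0.706% ± 0.0645 in mutants. This share also depends on the other heavy chain genes, of which Dnah8 fell from 61.4 to 32.4 CPM per kb.

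The upstream sequences of these heavy chain genes are shown because the genes share a role and moved in opposite directions. They were read from GRCm39, run to the base before the start of the canonical transcript except for Dnah8, and are written on the strand of the gene. Capitals mark a single arm of the X-box, GTTNCC or its reverse complement GGNAAC, the motif of RFX factors, which activate cilia and sperm-tail genes. For Dnah8 the stretch from 250 to 151 bases before the start is given (chr17:30845659-30845758, plus strand), since annotated exons of genes on the other strand lie closer to the start. The annotated Dnah8 gene begins further upstream, at 30843328, and its canonical transcript at 30845909. This stretch therefore lies inside the annotated gene. The others are 170 bases long, for Dnah17 at chr11:118021461-118021630 (minus strand), Dnah11 at chr12:118162779-118162948 (minus), Dnah9 at chr11:66059374-66059543 (minus) and Dnah5 at chr15:28203728-28203897 (plus).
Dnah8: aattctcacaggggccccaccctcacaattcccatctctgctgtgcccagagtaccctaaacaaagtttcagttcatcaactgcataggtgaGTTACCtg
Dnah17: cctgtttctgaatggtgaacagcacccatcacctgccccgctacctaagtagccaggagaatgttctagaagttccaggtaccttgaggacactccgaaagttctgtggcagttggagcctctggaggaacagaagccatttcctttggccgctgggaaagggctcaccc
Dnah11: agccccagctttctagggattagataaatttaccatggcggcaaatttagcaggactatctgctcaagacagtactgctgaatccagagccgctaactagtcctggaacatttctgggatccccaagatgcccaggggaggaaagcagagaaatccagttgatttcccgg
Dnah9: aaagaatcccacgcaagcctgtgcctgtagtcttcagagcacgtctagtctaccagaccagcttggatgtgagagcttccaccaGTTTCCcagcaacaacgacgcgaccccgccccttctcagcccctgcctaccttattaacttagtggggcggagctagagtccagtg
Dnah5: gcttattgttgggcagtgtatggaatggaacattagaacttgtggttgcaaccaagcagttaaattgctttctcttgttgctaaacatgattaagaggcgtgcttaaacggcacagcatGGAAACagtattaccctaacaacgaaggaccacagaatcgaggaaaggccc
Within 250 bases of the start, Dnah8 held the motif 158 bases before it, Dnah9 86 bases and Dnah5 51 bases before it, and Dnah17 and Dnah11 had no match. The motif was thus found for both genes that rose and for 1 of the 3 that fell, against 41.0% of all protein-coding genes with values. This describes 5 genes, and a relation between the motif and the direction of change was not tested.

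The intermediate and light chain genes of the outer arm changed less than the heavy chain genes at either extreme. Dnai2 fell (-0.26, SE 0.075, limma FDR 0.00803), from 94.03, 99.21, 116.9 and 90.25 CPM in WT to 85.16, 83.96 and 79.77 CPM in mutants. Its call was lost in 4 of the 7 fits that left out 1 library, with FDR up to 0.0344. Dnal4, a light chain gene, fell from 98.45 ± 4.959 to 86.09 ± 1.95 CPM (-0.19, SE 0.049, limma FDR 0.0042) without overlap, and its call too was lost in 4 of these fits. Dnai1, the other intermediate chain gene, stood at 105.1 ± 5.112 CPM in WT and 101.3 ± 4.792 CPM in mutants and was not called (-0.053, SE 0.052), but was called lower with size factors (-0.19, limma FDR 0.00819). Dnal1, a light chain gene, stood at 32.09 ± 1.504 and 35.25 ± 1.241 CPM, with overlap and no call under either scaling.

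Of the 4 docking complex genes 2 fell, and with size factors all 4 did, against 14.2% and 25.1% of all genes called lower. Odad1 was measured at 57.5, 57.61, 55.39 and 57.02 CPM in WT and at 35.77, 33.28 and 49.67 CPM in mutants. The WT libraries agreed closely, whereas mutant 4 lay nearer to WT than mutants 1 and 2 did. Its fold change was -0.54 (SE 0.105, limma FDR 0.000615), and fits lacking any 1 library also called it, at -0.72 to -0.43. Odad3 fell from 66.24, 69.88, 77.54 and 69.48 CPM to 60.62, 57.91 and 55.53 CPM, without overlap (-0.28, SE 0.059, limma FDR 0.00103). Odad4 was lower in every mutant library than in any WT library (227.0 ± 12.03 against 204.7 ± 5.877 CPM) but missed the threshold (-0.15, SE 0.047, limma FDR 0.0159). Odad2 overlapped between genotypes, at 59.12 ± 5.693 and 50.98 ± 4.013 CPM (-0.21, SE 0.077, limma FDR 0.0304). Both passed with size factors and without WT 4, which had the lowest WT value of each.

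Of 14 inner-arm genes 10 fell, against 14.2% of all genes called lower, with fold changes of -0.38 to -0.18. The other 4 (Dnah7b, Dnah2, Dnah3 and Dnai7) were not called, at -0.17 to 0.074. The count of inner-arm genes that fell was 5 without mutant 1 and 6 without mutant 4. With size factors 13 fell, against 25.1% of all genes, and Dnai7 was again not called. The summed level of the group was 2164 to 2279 CPM in WT and 1895 to 1991 CPM in mutants.

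The deepest fall of the group was that of Dnai3, an intermediate chain gene of the double-headed inner arm. It was measured at 112.2, 114.1, 114.3 and 112.3 CPM in WT and at 82.95, 88.26 and 90.89 CPM in mutants (-0.38, SE 0.044, limma FDR 1.16e-05). The WT libraries lay close together, apart from the mutant values. Dnai4, a second intermediate chain gene of that arm, fell from 106.2 ± 7.292 to 89.64 ± 2.404 CPM (-0.24, SE 0.055, limma FDR 0.00199). Dnah10, a heavy chain gene of the same arm, fell from 172.5, 169.6, 173.0 and 168.9 CPM to 146.9, 139.6 and 161.8 CPM (-0.20, SE 0.05, limma FDR 0.00393). The call of Dnah10 held in only 4 of the 7 fits that left out 1 library, with limma FDR up to 0.0246. Dnah2, the other heavy chain gene of that arm, was close to Dnah1 in WT level per kb (17.8 ± 1.41 and 17.6 ± 0.642 CPM per kb). Dnah2 stood at 276.7 ± 21.82 and 257.1 ± 14.36 CPM with overlap (-0.10, SE 0.06, limma FDR 0.147).

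Dnali1, the light intermediate chain gene of single-headed inner arms, fell from 201.3, 191.7, 187.5 and 195.4 CPM to 169.2, 153.3 and 157.5 CPM, without overlap (-0.28, SE 0.045, limma FDR 0.000167). Dnah14 fell from 203.1, 218.3, 237.7 and 248.3 CPM to 179.7, 190.4 and 189.5 CPM, the largest fall among the inner-arm heavy chain genes (-0.28, SE 0.062, limma FDR 0.00167). Dnah1, whose human counterpart is a known gene of sperm tail malformation, fell from 223.1, 231.0, 230.4 and 243.6 CPM to 207.8, 201.0 and 206.7 CPM (-0.18, SE 0.041, limma FDR 0.00229). Dnah1 thus fell by 11.5%, with genotypes that did not overlap. Dnah6 and Dnah12 fell by similar amounts (both -0.20 to -0.19, limma FDR 0.00753 and 0.00996), and each lost its call in 5 of the 7 fits that left out 1 library. Dnah3 overlapped between genotypes at 161.0 ± 12.94 and 151.1 ± 10.62 CPM. Dnai7, an inner-arm associated gene, stood at 71.91 ± 2.422 and 75.67 ± 1.569 CPM, with mutants just above WT and no call (0.074, SE 0.046, limma FDR 0.182).

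Mice carry 3 copies of Dnah7 on chromosome 1, and reads could be divided among them. Their coding sequences are each 12072 bases long and 96.84% to 97.27% identical, and 14.27% to 17.9% of the read-length stretches of each gene occur unchanged in another copy. The first 60 coding bases, read from GRCm39, show how closely they match, with positions that differ between copies in capitals.
Dnah7a: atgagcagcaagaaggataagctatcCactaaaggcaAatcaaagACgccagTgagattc
Dnah7b: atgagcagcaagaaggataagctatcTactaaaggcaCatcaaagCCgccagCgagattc
Dnah7c: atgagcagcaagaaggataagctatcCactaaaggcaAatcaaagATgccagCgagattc
Dnah7a (125.5 ± 4.233 against 110.8 ± 3.181 CPM, limma FDR 0.00333) and Dnah7c (109.9 ± 4.696 against 95.02 ± 5.057 CPM, limma FDR 0.00312) were called lower. Dnah7b (133.1 ± 5.128 against 118.6 ± 9.212 CPM, limma FDR 0.0176) was not. Their fold changes of -0.18, -0.21 and -0.17 differed by less than the SE of any of them. The calls of Dnah7a and Dnah7c held in only 4 and 5 of the 7 fits that left out 1 library. Summed over the copies, a choice made after the values were seen, the level was 369 ± 11.6 CPM in WT and 324 ± 17.0 CPM in mutants (-0.18, SE 0.044, limma FDR 0.00291).

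**Figure D4:**
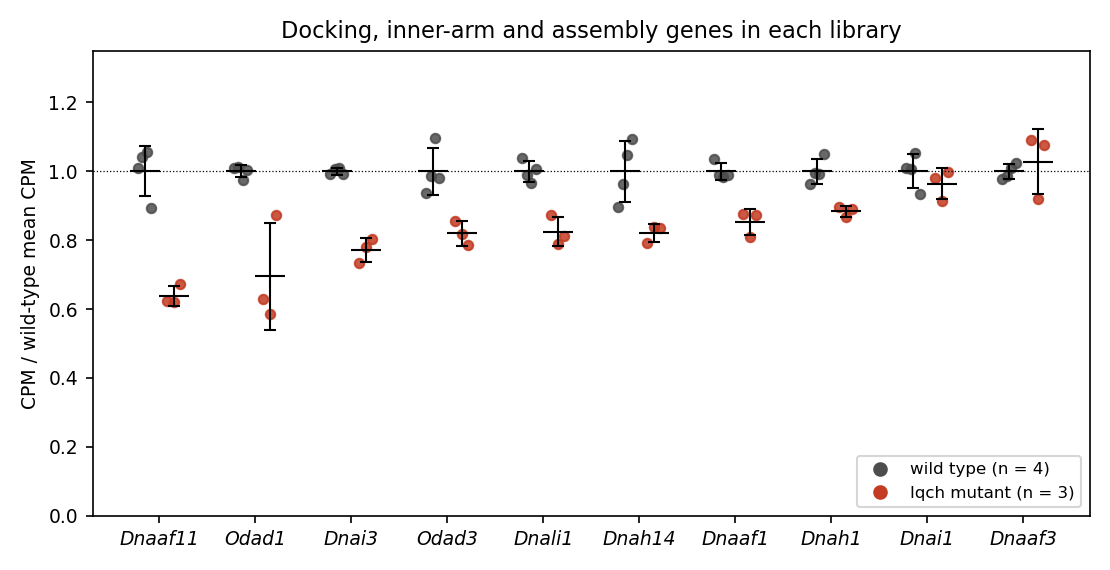
CPM of 10 docking, inner-arm, outer-arm intermediate chain and assembly genes in each library, divided by the WT mean of the gene (WT grey, n = 4; mutants red, n = 3; bars, mean and SD). The mutant libraries of Dnaaf11 lie near 0.64 of WT, those of Odad1 spread widely, and those of Dnai1 and Dnaaf3 overlap the WT libraries.

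Of 10 assembly factor genes 2 fell (Dnaaf11 and Dnaaf1), close to the share of all genes called lower, 14.2%. The others were not called, and the median fold change was -0.035. With size factors 3 of the 10 fell, against 25.1% of all genes. Dnaaf11 was measured at 115.5, 119.0, 120.9 and 102.3 CPM in WT and at 71.37, 71.01 and 76.97 CPM in mutants. The WT level was 1.56 times the mutant level (-0.64, SE 0.06, limma FDR 1.47e-06), a fall among the 40 genes exceeded only by those of Dnah11 and Dnah8. Dnaaf1, the most abundant assembly factor gene per kb and by CPM, was measured at 993.7, 949.4, 942.7 and 949.4 CPM in WT and at 839.2, 775.7 and 836.9 CPM in mutants. It fell by 14.8% (-0.23, SE 0.04, limma FDR 0.000275) and held 67.4% ± 0.921 of the group's CPM in WT and 65.7% ± 0.587 in mutants. Exons of Taf1c on the opposite strand cover 21.6% of the exon bases of Dnaaf1, and exons of Hsdl1 overlap it too. Taf1c stood at 15.16 ± 1.832 CPM in WT and 17.67 ± 0.3766 CPM in mutants and was not called. The part of these genes in the value of Dnaaf1 was not tested.

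The region before the start of Dnaaf11 is shown because its gene fell most among the assembly factors (GRCm39, chr15:66372760-66372929, minus strand). It holds single X-box arms, in capitals, 105 and 35 bases before the start, and part of it is exon of the lncRNA gene Gm31006 on the opposite strand.
Dnaaf11: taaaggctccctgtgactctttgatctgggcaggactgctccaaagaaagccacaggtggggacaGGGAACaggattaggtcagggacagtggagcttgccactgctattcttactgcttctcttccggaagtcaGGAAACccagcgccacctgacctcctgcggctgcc
Dnaaf3 (97.15 ± 2.077 against 99.92 ± 9.292 CPM), Dnaaf8 (61.41 ± 3.315 against 62.42 ± 2.725 CPM) and Dnaaf9 (104.1 ± 4.414 against 108.6 ± 1.801 CPM) overlapped between genotypes, as did Dnaaf2, Dnaaf5, Dnaaf10 and Dnaaf6rt. Of these 7, only Dnaaf5 was called with size factors (-0.23, limma FDR 0.00359). Dnaaf4 was the least abundant assembly factor gene, at 2.409 ± 0.4429 CPM in WT and 1.852 ± 0.06328 CPM in mutants, or 61 to 98 reads (-0.34, SE 0.173, limma FDR 0.1). Its libraries did not overlap, but the WT spread was wide at this depth. Dnaaf4 met the minimum of 2.2 CPM in WT libraries only, so this separation is not independent of the filter. The values of Dnaaf4 and Dnaaf2 are uncertain, since 42.3% and 28.3% of their read-length stretches also occur in another gene.

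Among the 3 N-DRC genes 1 was called, as higher, against 36.3% of all genes. With size factors 2 were called, both as lower, against 25.1% of all genes. Drc3 was called higher, from 74.62, 73.37, 75.81 and 74.67 CPM to 80.76, 83.68 and 85.54 CPM (0.16, SE 0.043, limma FDR 0.00657). Its fold change lay only 0.038 above the median of all genes, and with size factors it was 0.024 and not called. Drc7 stood at 81.22 ± 1.346 and 73.91 ± 1.125 CPM without overlap (-0.14, SE 0.042, limma FDR 0.0138), and Drc1 at 129.2 ± 9.028 and 116.6 ± 5.264 CPM with overlap (-0.15, SE 0.058, limma FDR 0.0415). With size factors both were called lower, at -0.27 and -0.28.

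Genes of the same axonemal structures under other names gave a similar count. Of 32 with values (of 36 listed: further arm and docking genes, assembly genes, N-DRC and ruler genes), 15 were called lower and 1 higher, with a median of -0.16. Of all genes 14.2% were called lower and 36.3% higher. With size factors 28 of the 32 were called lower and 1 higher, against 25.1% and 27.0% of all genes. The largest falls were those of Clxn, a calaxin gene (21.43 ± 2.233 to 15.83 ± 0.9698 CPM, -0.43), Ccdc103, an arm assembly gene (41.4 ± 0.5029 to 32.02 ± 1.493 CPM, -0.37), Ccdc39, a molecular ruler gene (-0.34), Tcte1, an N-DRC gene (-0.32), and Ccdc146 (-0.31). The gene that rose was Dynlrb1, a light chain gene shared with cytoplasmic dynein (11.24 ± 0.6111 to 25.21 ± 1.997 CPM, 1.16, limma FDR 9.74e-08). Its relative Dynlrb2 stood at 55.66 ± 3.845 and 49.34 ± 3.587 CPM and was called lower only with size factors (-0.31, limma FDR 0.00174). The 9 cytoplasmic dynein genes, whose products carry cargo along microtubules, had a median of 0.044. Among them Dync1li1 (0.70, limma FDR 2.86e-05) and Dync2i1 (0.19, limma FDR 0.00513) rose, and the other 7 were not called. The share called higher was 22.2%, against 36.3% of all genes. With size factors Dync1li1 was called higher, and Dync1h1 (-0.21, limma FDR 0.00163) and Dync2h1 (-0.18, limma FDR 0.00564) lower. The 2798 protein-coding genes with over 10000 bases of exon had a median of 0.19, with 271 called lower and 1242 higher, and with size factors a median of 0.054, with 603 lower and 905 higher.

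Among 10 genes for regulators of cilia and spermatid transcription with values, 4 fell, and 8 were called lower with size factors, against 14.2% and 25.1% of all genes. The 4 were Rfx2 (411.2 ± 11.69 to 371.7 ± 11.09 CPM, -0.15, limma FDR 0.00594), Rfx3 (-0.18), Sox30 (-0.18) and Tbpl1 (-0.20). Foxj1, the regulator of motile cilia, stood at 93.39 ± 12.61 and 74.83 ± 8.729 CPM and was not called (-0.32, SE 0.1, limma FDR 0.0147), but was called lower with size factors (-0.45, limma FDR 0.0019). In the 250 bases before the start, counted on both strands, a single X-box arm (GTTNCC or GGNAAC) was found for 28 of the 40 genes (70.0%), against 41.0% of 13785 protein-coding genes. It was found for 3 of 9 outer-arm, 4 of 4 docking, 11 of 14 inner-arm, 8 of 10 assembly and 2 of 3 N-DRC genes. A full X-box in this spelling, that is both arms with 0 to 3 bases between them, was found for Dnaaf6rt alone (2.5%, against 0.8% of all), which was not called. Other spellings of the arms were not searched, so further pairs can have been missed. The forkhead motif GTAAACA, also read on both strands, was found for Odad2 alone (2.5%, against 2.2%) and the cyclic AMP response element TGACGTCA for Dnai3 alone (2.5%, against 2.0%). A full X-box also counts as single arms.

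Markers of testis cell types were read beside these results, and their part in them was not tested. All 10 markers of elongating spermatids, such as Prm1 and Tnp1, were called lower, with fold changes of -0.76 to -0.36, a median of -0.59 and summed levels of 27480 to 28850 CPM in WT and 18220 to 20620 CPM in mutants. Of 8 round spermatid markers 5 were called lower, with a median of -0.21 and sums of 1299 to 1385 and 1137 to 1207 CPM. Of 9 spermatocyte markers 2 were called lower, with a median of -0.064 and sums of 1953 to 2058 and 1735 to 1753 CPM. Much of the last sums was Pgk2, at 933.7 CPM in WT and 740.5 CPM in mutants. Hormad1 (0.052) and Dmc1 (0.206) had positive fold changes and were not called. The list also holds Spag6, which the study counts among spermatid markers. With size factors 10 elongating spermatid, 8 round spermatid and 5 spermatocyte markers were called lower. Of all genes 14.2% were called lower, and 25.1% with size factors. The median of the 40 axonemal genes, -0.18, lay near that of the round spermatid markers, and the fold changes of Dnah8 and Dnah11 lay below the range of the elongating spermatid markers.

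Markers of Sertoli cells, Leydig cells and macrophages were mostly higher, whereas those of endothelial and peritubular myoid cells were mixed. Of all genes 36.3% were called higher and 14.2% lower, and with size factors 27.0% and 25.1%. All 9 Sertoli cell markers with values were called higher, with sums of 1259 to 1379 CPM in WT and 2591 to 2721 CPM in mutants. So were 7 of 8 Leydig cell markers, with sums of 1057 to 1268 and 4425 to 4581 CPM, and all 7 macrophage markers, with sums of 67.1 to 73.87 and 166.7 to 194.7 CPM. With size factors 7 Sertoli, 7 Leydig and 7 macrophage markers were called higher. Spermatogonial markers were called higher for 4 of 8 genes (1 with size factors), endothelial markers for 2 of 5 (with 1 more called lower with size factors), and among 5 peritubular myoid markers 1 was called lower and 1 higher. For the cilia-type genes Dnah5, Dnah9 and Dnah11, markers of multiciliated cells were read beside them. Of 9 such markers, 4 had values (Foxj1, Ccno, Deup1 and Cdc20b), with sums of 377.9 to 437.3 CPM in WT and 325.9 to 349.5 CPM in mutants, and 1, Deup1, was called lower (2 with size factors). Mcidas, Gmnc, Sntn, Tmem212 and Bpifb1 were not among the genes with values. Deup1, at 306.0 CPM, and Foxj1 made up most of the WT sum, and Ccno was at 3.31 ± 0.3328 CPM in WT and 3.327 ± 0.8434 CPM in mutants.

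**Figure D5:**
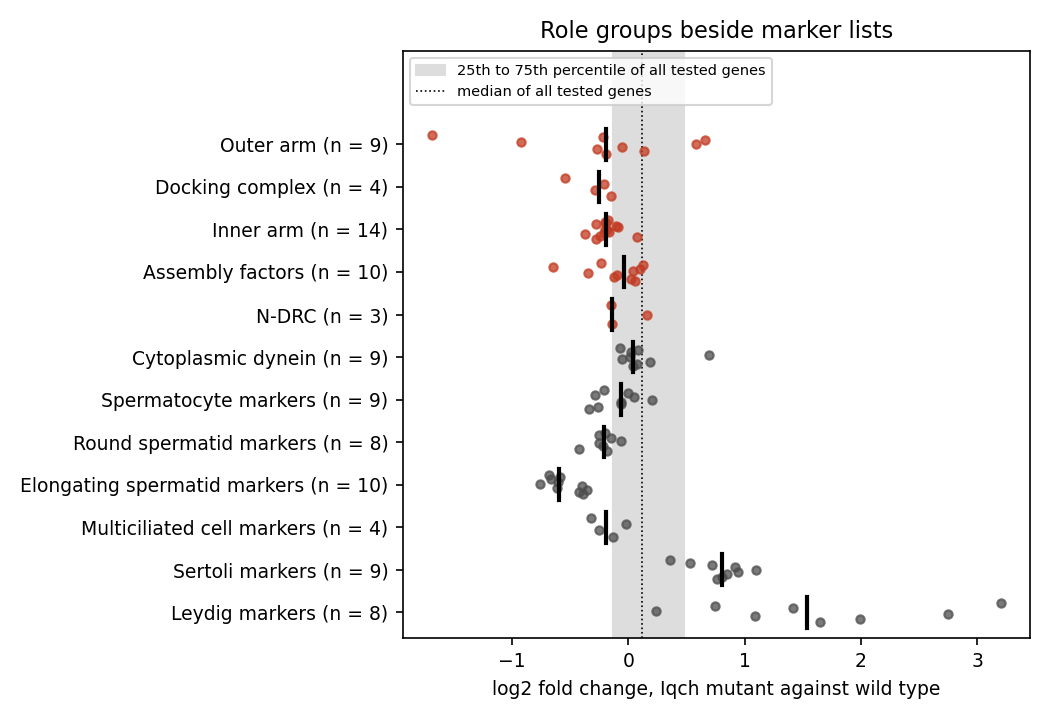
Log2 fold change of mutant against WT for each gene (points) and the median (black bar) of the role groups (red) beside cytoplasmic dynein genes and cell type markers (grey). The grey band spans the 25th to 75th percentile of all tested genes. The medians of the outer-arm, docking and inner-arm genes lie at -0.19, -0.25 and -0.20, between those of spermatocyte and elongating spermatid markers.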

How the data were processed

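Reads of 7 adult testis libraries (4 wild type, 3 Iqch mutant) were processed by the authors with Trimmomatic, Subread on GRCm39 and featureCounts, per the labels and the study's methods. Genes below 75 counts in 2 samples of a group were removed, and values were deposited as CPM, which sum to 1000000 in each library, so no between-sample factor is in them. The strand setting and annotation release are not given in the sources used here. Of 8 samples listed, 1 mutant, which the study left out as an outlier, is not analysed here. All values (100%) are whole multiples of 1 step per library (tolerance 0.01), read as 1 read. Precision for scarce genes is limited by counting, with 3 reads as the floor.

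Tests used limma 3.58.1 in R 4.3.3 (trend) on log2(CPM + 0.1), for genes with at least 2.2 CPM in 2 samples of a group, with Benjamini-Hochberg adjustment. Libraries are 1 mouse each. Positions and lengths came from GENCODE M39, and sequences from GRCm39. Alternatives were size factors, other pseudocounts (1, 0.01), minimums (none, 5 CPM), a replicate block and each library left out. All members were accounted for, up to 4 called lowest and 4 highest per role group being described, with Dnah1, Dnah11 and the Dnah7 copies. The members and lists were chosen with earlier results of these data known.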

Additional observations from a re-analysis of the deposited data

Results flagged for a closer look

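Of 48 measures examined for a library far from the rest of its group, 2 stood out, and chance marks about 1 in 20. Dnaaf1 was at 994 CPM in wild type 1, with wild types 2 to 4 at 943 to 949 CPM, a gap of 0.868 of the range, and its fall was called whichever single library was omitted. Dnai7 was at 68.3 CPM in wild type 4, with wild types 1 to 3 at 73.0 to 73.2 CPM, a gap of 0.949 of the range, and was not called in any of the 7 fits without 1 library.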

How the results depend on the processing

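Of the 22 genes called, 20 were called in the same direction under both scalings, and 10 (Dnah8, Dnah9, Dnah11, Dnah14, Dnai3, Dnali1, Odad1, Odad3, Dnaaf1 and Dnaaf11) in every alternative that tested them. Among these, Dnah11 met the minimum level through WT libraries only. Size factors gave 4 docking and 2 N-DRC genes, and turned 6 uncalled genes to below 0: Dnaaf10 (-0.009), Dnaaf2 (-0.028), Dnaaf3 (-0.098), Dnaaf8 (-0.11), Dnaaf9 (-0.073) and Dnai7 (-0.061). With single libraries left out, Dnaaf3 ran from -0.008 (without mutant 1) to 0.116 and Dnaaf8 from -0.002 (without wild type 1) to 0.061. With each library left out, 7237 to 8503 genes were called in all, 4 to 7 outer-arm (4 without mutant 2 or mutant 4), 2 to 4 docking (4 without wild type 4), 5 to 9 inner-arm (5 without mutant 1, 6 without mutant 4), 2 assembly and 0 to 2 N-DRC genes (0 without mutant 2, mutant 4, wild type 1 or wild type 2, where 2 or 3 were under an unadjusted limma p of 0.05, and 2 without wild type 4). The cause of these changes was not tested beyond the smaller number of samples. The replicate numbers did not pair the samples (correlations of 0.026, 0.009 and -0.098 for same-numbered pairs). A replicate block gave 7722 genes in all and 0 N-DRC genes (2 under an unadjusted limma p of 0.05), and Dnah5, Dnah6, Dnah10, Dnah12, Dnai2 and Drc3 were no longer called. The planned count-based tests were not run, since the deposited CPM were not taken as counts. Dnah11, Dnah5 and Dnaaf4, at 35 to 185 reads, are the most limited by depth.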
